A study of Mus musculus with 6 samples.

Results

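Malat1, Neat1, Miat, Rmst, Sox2ot, Dlx6os1 and Pantr1 are long noncoding RNAs that are either retained in the nucleus or transcribed beside transcription factor genes of the nervous system. They were taken by symbol from the deposited table, where each had 1 row, so that 7 of 25996 genes are described, among 4070 genes that GENCODE classes as long noncoding RNA. The samples were mouse neural stem cells kept in proliferation conditions, as 3 libraries of cells with a control short hairpin RNA (labelled shControl, genotype WT) and 3 libraries of cells with a hairpin against Mina53 (labelled shMina53, genotype Mina53 knockdown). Mina53 is the protein of the gene Riox2, a JmjC-domain oxygenase; the series title names it as an arginine demethylase and as a regulator of the neural stem cell pool. The labels give no donor strain, age, brain region or hairpin sequence, and do not say whether the 3 libraries of a group came from separate cultures, so that the p-values below measure only the spread between these libraries, which may be technical.

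Long noncoding RNAs are spliced or unspliced transcripts that are not translated into a known protein. Malat1 and Neat1 are neighbours and belong to 2 nuclear bodies: Malat1 RNA gathers at nuclear speckles, which store splicing factors, and the long Neat1 isoform is the scaffold around which paraspeckles assemble. The others are known from neural tissue: Miat (also called Gomafu) forms its own nuclear dots and binds splicing factors, Rmst is described as a partner of the SOX2 protein, Sox2ot surrounds the Sox2 gene, Dlx6os1 (Evf2) is transcribed across Dlx6 and marks forebrain interneuron precursors, and Pantr1 is transcribed away from Pou3f3, a POU-domain factor of cortical progenitors.

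The sequences for which Malat1, Neat1 and Miat are best known are shown first, read from the GENCODE M21 transcripts (mm10), 5′ to 3′ on the RNA strand with T for U. Neither Malat1 nor the long Neat1 isoform ends in a tail added after cleavage: RNase P cuts each, and the new end is folded into a triple helix of U-rich and A-rich stretches that protects it. Capitals mark the letters TTTCTTTT and GGTTTTGC of the U-rich stretches and AAAGCAAAA of the A-rich stretch; the marked motifs do not overlap one another. The Malat1 stretch lies at chr19:5795982-5796070 on the minus strand, 292 bases before the annotated transcript end, and the Neat1 stretch at chr19:5824708-5824802 on the minus strand, where it forms the annotated end.
Malat1: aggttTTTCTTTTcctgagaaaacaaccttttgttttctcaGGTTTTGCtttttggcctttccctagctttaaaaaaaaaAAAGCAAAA
Neat1: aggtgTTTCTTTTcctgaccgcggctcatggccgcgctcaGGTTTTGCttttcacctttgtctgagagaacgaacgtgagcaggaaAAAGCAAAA
With the 3 motifs in this order and 10 to 60 bases between neighbours, transcripts of 2 of 55450 annotated genes (0.00361%) held the arrangement, Malat1 and Neat1, and transcripts of 0 genes held it on the opposite strand. The letters were chosen from these 2 sequences, so the count is a description.

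Miat carries repeats of TACTAAC, the letters of the strong intron branch point that the splicing factor SF1 recognises. Its longest transcript, of 9163 bases, held 6 copies on the RNA strand and 0 on the other strand, all 6 within the 2 windows printed here with the copies in capitals. Both lie in the last exon, at chr5:112217309-112217460 and chr5:112216752-112216812 on the minus strand.
Miat window 1: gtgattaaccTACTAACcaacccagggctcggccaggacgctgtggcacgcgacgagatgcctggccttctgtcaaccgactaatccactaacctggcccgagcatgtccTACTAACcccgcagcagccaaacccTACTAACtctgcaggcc
Miat window 2: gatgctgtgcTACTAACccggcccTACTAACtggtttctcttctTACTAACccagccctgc
Of the 100 long noncoding RNA genes in the table whose longest transcript has at least 5000 bases, 20 held at least 1 copy and 1, Miat itself, held 6 or more. Neat1 held 1 copy, and Malat1, Rmst, Sox2ot, Dlx6os1 and Pantr1 held 0 on the RNA strand of their longest transcripts.

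The libraries held between 13753857 and 16811085 reads on genes. Values below are scaled counts, that is reads divided by 1 factor per library, so that 1 read is worth 0.939 to 1.13 scaled counts. Riox2, the targeted gene, stood at 290.4, 332.7 and 307.2 scaled counts in shControl 1 to 3 and at 120.8, 124.6 and 120.9 in shMina53 1 to 3. Its groups did not overlap, and it fell by 1.34 on the log2 scale (SE 0.146, adjusted p = 9.1e-05, limma). The neural stem cell markers (among them Sox2, Nes, Vim and Fabp7) were all 11 present, with a summed level of 137403 to 158018 scaled counts in the 3 controls and 135560 to 140513 in shMina53. Markers of the oligodendrocyte lineage (9 of 9 present, 48018 to 50412 against 45604 to 54640), neurons (8 of 8, 14751 to 16337 against 16353 to 17258) and astrocytes (5 of 5, 18144 to 19855 against 22551 to 23682) were present too. Microglia (2 of 6, 1.89 to 4.77 against 3.11 to 5.80), endothelium (4 of 5, 40.4 to 65.8 against 61.9 to 78.9), fibroblasts and mural cells (6 of 6, 41.9 to 59.2 against 63.3 to 87.2) and red cells (2 of 5, 9.39 to 13.3 against 13.5 to 19.7) were low. Of these lists, astrocyte markers had 2 of 5 called higher and 0 lower, oligodendrocyte lineage markers 0 of 9 higher and 4 lower, neural stem cell markers 2 of 11 higher and 3 lower, and neuron markers 1 of 8 higher and 2 lower, beside 8.26% of all genes tested. The neuron sum was mostly Map2, which was the one called higher (log2 fold change 0.37, adjusted p = 0.0441), whereas the median log2 fold change of the list was -0.46. Without shControl 3 the counts were 4 and 0 for astrocytes and 0 and 5 for the oligodendrocyte lineage. They were 2 and 3 for neural stem cells and 1 and 4 for neurons, beside 11.6% of all genes called in that fit. The part of these markers in the values of the long noncoding RNAs was not tested, and in such bulk samples fewer cells of a type and less RNA per cell cannot be told apart.

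One control library stood apart, and it bears on every fold change below. In shControl 3 the 77 ribosomal protein genes took 3.62% of reads, against 2.40% and 2.77% in the other controls and 1.90% to 2.08% in shMina53. Long transcripts were low in it: across 11382 protein-coding genes its log2 level changed by -0.21 per doubling of exonic length relative to the mean of the libraries, against -0.04 to 0.10 in the other 5. The labels give no reason for this, and values that moved without this library are given both ways.

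The levels of the 7 RNAs were compared per kilobase of annotated exon, counting the exons of all isoforms together. For Sox2ot (11594 bases) and Pantr1 (4458) this is more than the longest transcript (3486 and 2085). The order below Malat1 is therefore that of this divisor and may differ with another. Malat1 led with 3458 scaled counts per kilobase over all 6 libraries, followed by Pantr1 with 132, Neat1 with 102, Miat with 48.0 and Sox2ot with 42.6, while Rmst had 0.305 and Dlx6os1 0.0669. Per kilobase, every library had more Pantr1 than any library of its group had Neat1, with a gap close to 0 in shControl, while the libraries of Miat and Sox2ot overlapped in both groups, so that the order of the last pair is not set by these data. By scaled count Malat1 was second and Neat1 eighth among the 2805 long noncoding RNA genes tested. Rmst and Dlx6os1, with 14 and 2 reads over all libraries, were at the limit of detection.

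**Figure D1:**
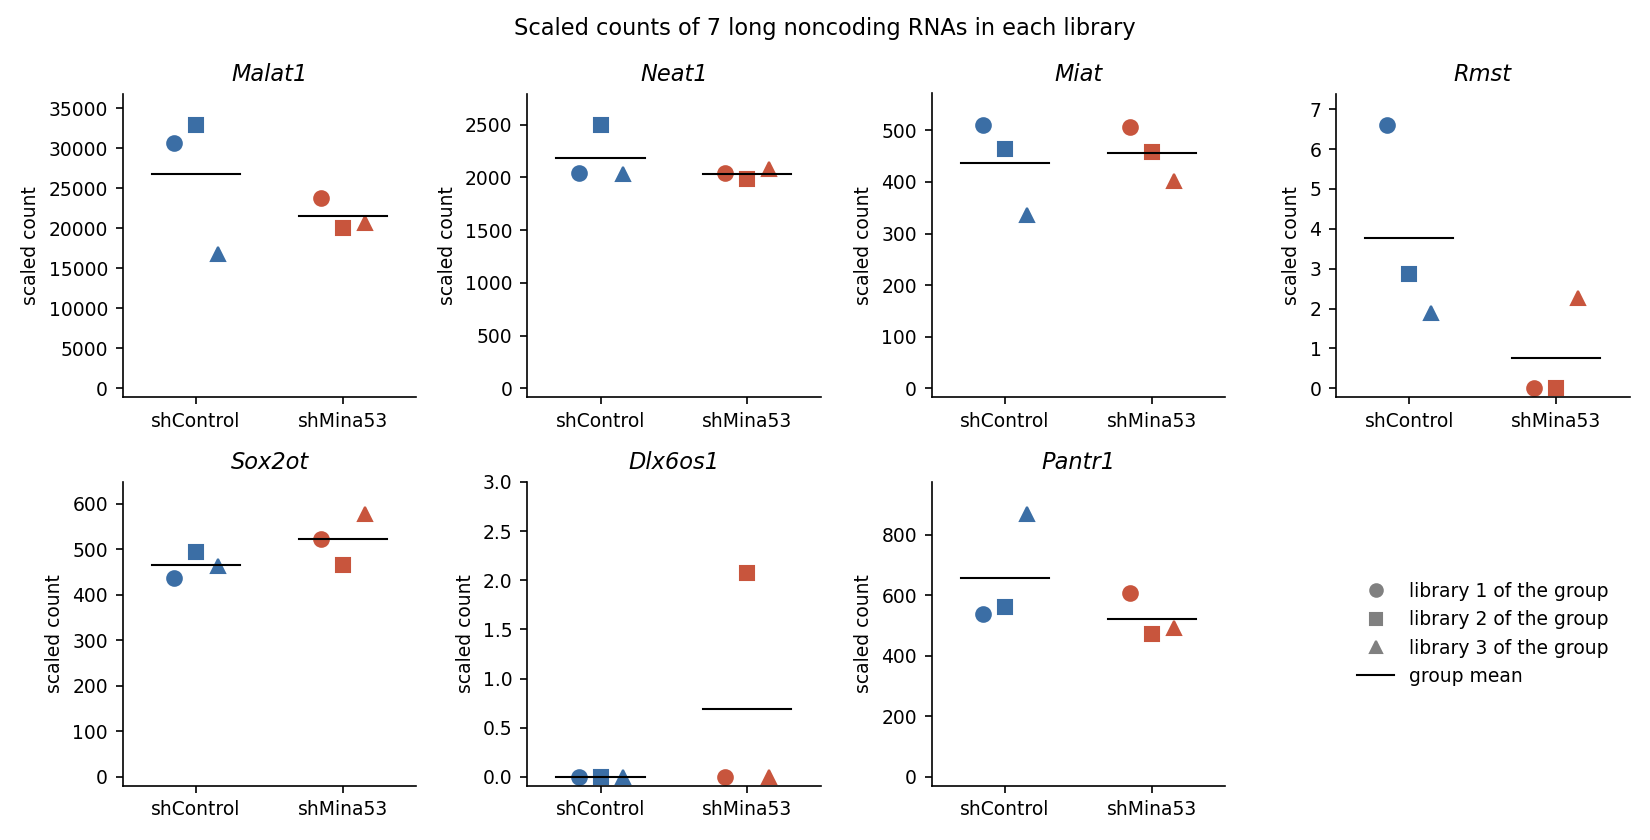
Scaled counts (vertical axes, linear, from 0) of each of the 7 long noncoding RNAs in the 3 shControl (blue) and 3 shMina53 (red) libraries; symbols mark the library number and lines the group means. The groups overlap in all 7 panels. shControl 3 (blue triangle) is the lowest control for Malat1, Miat, Rmst and, narrowly, Neat1, and the highest for Pantr1.

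Across the table, limma called 1776 of 21500 genes (8.26%) at an adjusted p under 0.05, 815 higher (3.79%) and 961 lower (4.47%) in shMina53. None of the 6 long noncoding RNAs with a mean of at least 1 scaled count was called, and Dlx6os1 was too low to test. Of the 6, 0 had an unadjusted p under 0.05 (limma), against 5084 of the 21500 genes. edgeR on the recovered reads called 0 of the 5 it kept, against 11.9% of its 15082 genes. DESeq2 called 0 of 6, against 2127 of the 25996 genes it was given. The number of genes it adjusted for is not given here, so the share is not stated. Each gave 0 of these RNAs an unadjusted p under 0.05. The shControl and shMina53 values overlapped for 7 of the 7, whereas 29.1% of the genes tested had groups that did not overlap.

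Malat1 (ENSMUSG00000092341, 1 exon of 6983 bases at chr19:5795690-5802672, minus strand) was the member whose result turned on 1 library. It stood at 30666, 32901 and 16807 scaled counts in shControl 1 to 3 and at 23845, 19985 and 20682 in shMina53 1 to 3. The shMina53 values lay between the high controls and the low one, and shControl 3 was at 52.9% of the mean of the other controls. The group means were 26791 ± 8719 and 21504 ± 2057 (SD, n = 3 each), a log2 fold change of -0.26 (SE 0.233, 95% interval -0.79 to 0.27, adjusted p = 0.556). The coefficient of variation was 32.5% among controls and 9.57% in shMina53, where counting error alone would give 0.639%, so depth was not the limit.

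Without shControl 3, the 3 shMina53 libraries all lay below both remaining controls, at 67.7% of their mean. Malat1 was then called, having fallen by 0.57 on the log2 scale (SE 0.078, adjusted p = 4.6e-07, limma). That fit called 11.6% of all genes and 5.98% as lower. Its SE and p draw in part on the spread of other genes, as limma does, and not on the Malat1 values alone. Exact permutation of so few libraries could give no p under 0.1, and was not run for Malat1 alone. In the 5 other fits that each left out 1 library, Malat1 was not called, with log2 fold changes from -0.34 to -0.08. Setting aside shControl 3 was decided with its values known, and the labels give no ground for it.

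Neat1 (ENSMUSG00000092274, 1 exon block of 20771 bases at chr19:5824708-5845478, minus strand) varied little. Its scaled counts were 2042, 2496 and 2028 in shControl and 2041, 1986 and 2083 in shMina53. Apart from shControl 2, which was the highest, all values lay within a narrow band. The log2 fold change was -0.10 (SE 0.111, 95% interval -0.33 to 0.14, adjusted p = 0.648), and -0.15 without shControl 3 (adjusted p = 0.336). Its short polyadenylated and long paraspeckle-forming isoforms share their first bases and are 1 row of the table, so the values do not separate them. When the trend with transcript length was removed in every library, Neat1, the longest of the 7, had a log2 fold change of -0.35 (adjusted p = 0.0765), its largest among the alternatives run.

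Miat (ENSMUSG00000097767, 6 exon blocks of 9293 bases in all, chr5:112213228-112229395, minus strand) had 510, 464 and 335 scaled counts in the 3 controls and 506, 458 and 402 in shMina53. Both groups spanned nearly the same range, with shControl 3 lowest. The log2 fold change was 0.08 (SE 0.153, 95% interval -0.25 to 0.40, adjusted p = 0.814), and it was -0.10 without shControl 3 (adjusted p = 0.673). Its exons share 2260 bases with Gm26953 on the opposite strand, which had a mean of 0.662 scaled counts.

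Pantr1 (ENSMUSG00000060424, 10 exon blocks of 4458 bases in all, chr1:42590782-42694842, minus strand) differed from Malat1 in where shControl 3 lay. Its scaled counts were 536, 561 and 870 in shControl and 606, 471 and 491 in shMina53, so that shControl 3 was highest of all 6. The log2 fold change was -0.30 (SE 0.169, 95% interval -0.66 to 0.06, adjusted p = 0.304), and without shControl 3 it was -0.08 (adjusted p = 0.757).

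Sox2ot (ENSMUSG00000105265, 19 exon blocks of 11594 bases in all, chr3:34104270-34682619, plus strand) had 437, 494 and 463 scaled counts in the 3 controls and 522, 466 and 578 in shMina53. shMina53 1 and 3 lay above every control and shMina53 2 among them. The log2 fold change was 0.16 (SE 0.125, 95% interval -0.10 to 0.43, adjusted p = 0.467), and it was also 0.16 without shControl 3.

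Rmst (ENSMUSG00000112117, 14 exon blocks, chr10:92071037-92165170, minus strand) had 7, 3 and 2 reads in shControl and 0, 0 and 2 in shMina53. The groups overlapped at 2 reads. The ratio of summed reads, 2 against 12 and corrected for library size, was 0.183, with an exact 95% interval of 0.0199 to 0.824 that covers counting error only. The limma test, which takes the spread between libraries into account, gave a log2 fold change of -1.57 that depends on the pseudocount at this depth (SE 0.743, adjusted p = 0.212). Without shControl 3 it was -1.87 (unadjusted p = 0.0392, limma, adjusted p = 0.179). Dlx6os1 (ENSMUSG00000090063, 5 exon blocks, chr6:6820189-6871592, minus strand) had 2 reads in shMina53 2 and 0 in each other library. Both groups were under the floor of 3 reads, so no fold is given.

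**Figure D2:**
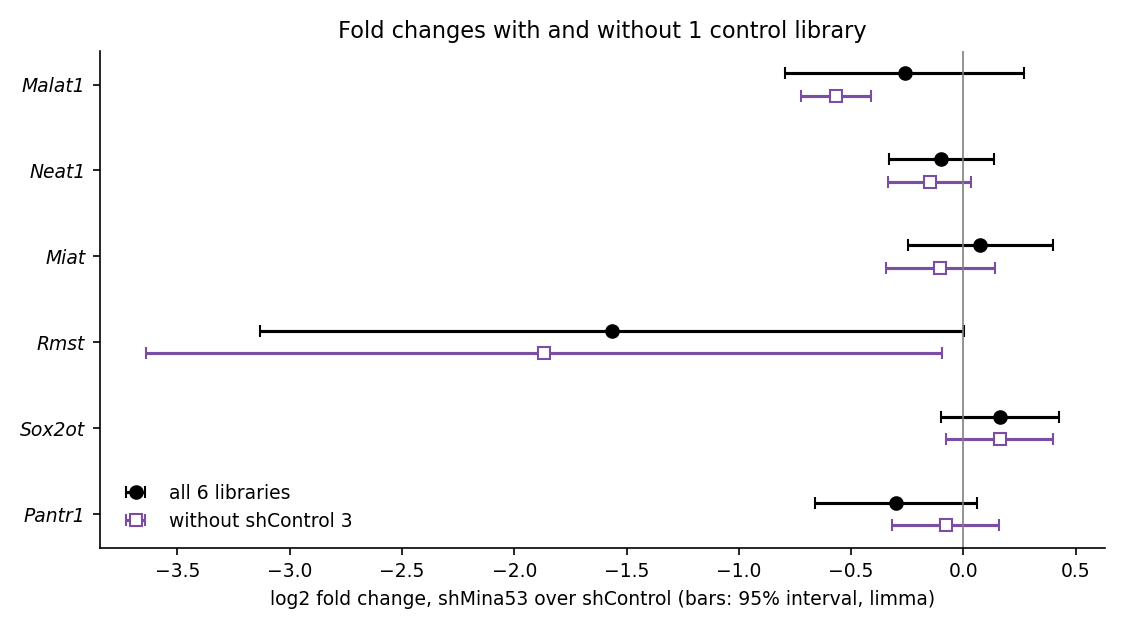
Log2 fold changes of shMina53 over shControl (horizontal axis; bars are 95% intervals from limma) for the 6 long noncoding RNAs tested, with all 6 libraries (black circles) and without shControl 3 (purple squares). With all libraries every interval includes 0, that of Rmst narrowly; without shControl 3 those of Malat1 (-0.72 to -0.41) and Rmst (-3.64 to -0.10) do not, and Rmst is not called in that fit (adjusted p = 0.179).

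Together the 7 RNAs took 0.223%, 0.242% and 0.130% of reads in shControl 1 to 3 and 0.178%, 0.151% and 0.156% in shMina53 1 to 3. Most of this was Malat1, which took from 0.106% of reads (shControl 3) to 0.215% (shControl 2). The means were 0.198% ± 0.0599 and 0.162% ± 0.0142 (SD, n = 3 each; exact two-sided permutation p = 0.4, where 3 against 3 can give no less than 0.1). Without shControl 3 the control mean was 0.232% and the groups did not overlap, a difference of -0.0709 percentage points in place of -0.0367 (exact permutation p = 0.1, again the smallest possible). Without Malat1 the share was 0.0243% ± 0.00179 and 0.0228% ± 0.000947 (n = 3 each; exact permutation p = 0.4).

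**Figure D3:**
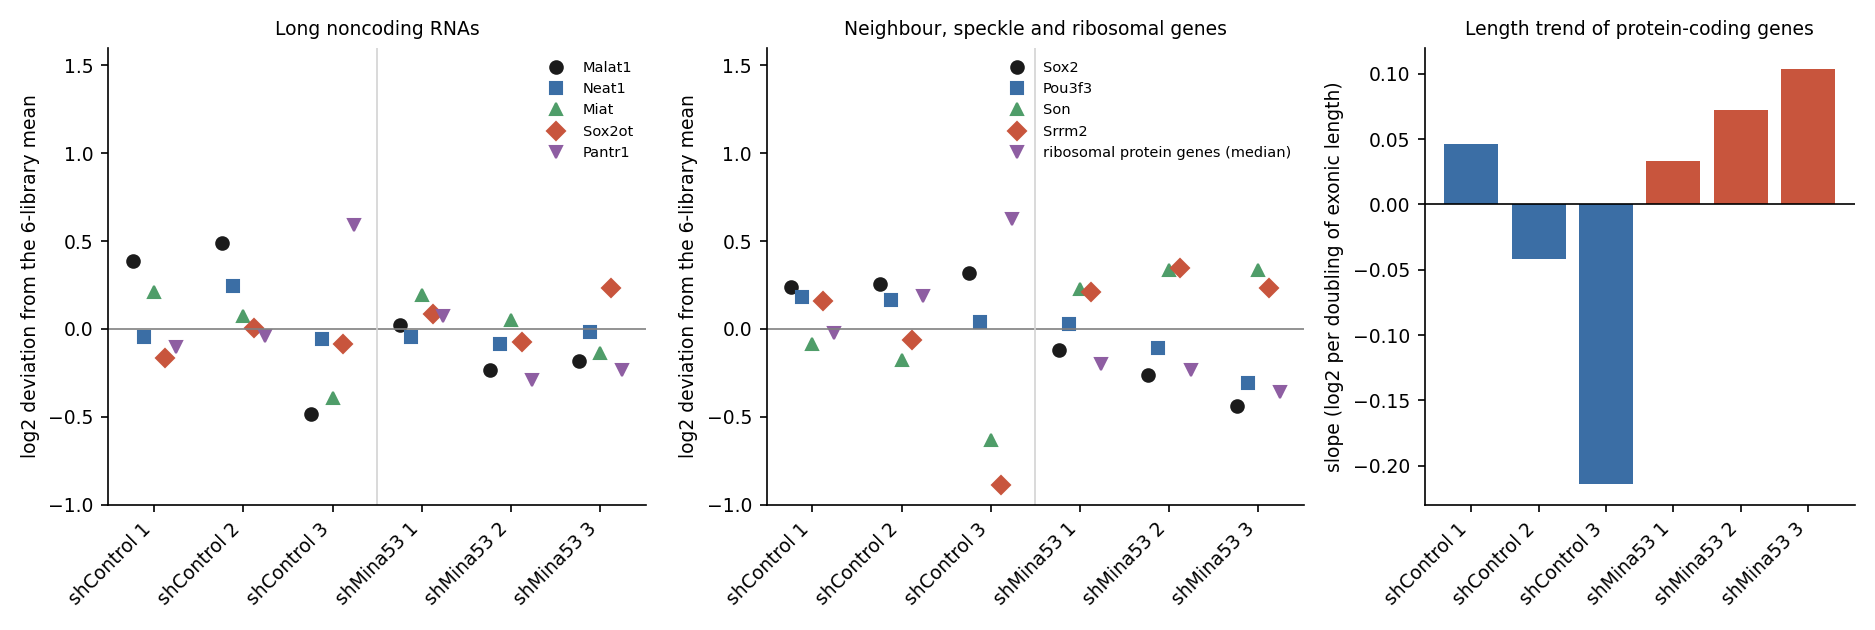
Left and middle, log2 deviation of each library from the mean of the 6 libraries for 5 long noncoding RNAs and for Sox2, Pou3f3, Son, Srrm2 and the median of 77 ribosomal protein genes; right, slope of the log2 level on exonic length per library (log2 per doubling). In shControl 3, Malat1 (-0.48), Miat (-0.40), Son (-0.63) and Srrm2 (-0.89) are low, Pantr1 (0.59) and the ribosomal protein genes (0.63) are high, and the slope is -0.21.

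The protein-coding genes at the same loci were examined next, since several of these RNAs are studied as neighbours of a transcription factor gene. Sox2, which encodes a factor that maintains neural stem cells, lies inside the span of Sox2ot on the same strand and shares 0 exonic bases with it. It had 7566, 7672 and 7991 scaled counts in the 3 controls and 5912, 5351 and 4738 in shMina53, without overlap between groups. Sox2 fell by 0.54 on the log2 scale (SE 0.109, adjusted p = 0.00602), and the call was lost without shMina53 3 (adjusted p = 0.0606).

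The log2 ratio of Sox2ot to Sox2 was -4.11, -3.96 and -4.11 in shControl and -3.50, -3.52 and -3.03 in shMina53. Every shMina53 library thus lay above every control, with a difference of 0.71, and of 0.68 without shControl 3. With the trend with transcript length removed, the log2 fold changes were 0.01 for Sox2ot and -0.34 for Sox2 (limma, adjusted p = 0.961 and 0.0203). The ratio was not tested on those values. The exact two-sided permutation p was 0.1, the smallest that 3 against 3 libraries can give, and 0.5 after adjustment over the 5 members that could be paired with their nearest or overlapping protein-coding gene. Pairing was decided after the members' values were known, and the difference of 0.71 contains the fall of Sox2 given above.

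Pou3f3 starts 925 bases from Pantr1 on the opposite strand. Its scaled counts were 6858, 6770 and 6208 in shControl and 6165, 5607 and 4891 in shMina53. These groups did not overlap, but the log2 fold change of -0.26 missed the threshold (SE 0.112, adjusted p = 0.172). It passed without shControl 3 (-0.30, adjusted p = 0.0137) and with the length trend removed (-0.32, adjusted p = 0.0298, limma). When any other library was left out, Pou3f3 was not called. The log2 ratio of Pantr1 to Pou3f3 differed by -0.04 between groups, and by 0.22 without shControl 3 (exact permutation p = 1 and 0.2), with a control range from -3.67 to -2.83 that held all shMina53 values.

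Frmd8 lies 4223 bases from Neat1 on the same strand and had a log2 fold change of -0.06 (adjusted p = 0.773). The log2 ratio of Neat1 to Frmd8 differed by -0.04 between groups (exact permutation p = 0.9). Nedd1, the nearest neighbour of Rmst, encodes a centrosomal protein and had a log2 fold change of 0.12 (adjusted p = 0.586).

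Dlx6 and Dlx5, the homeobox genes at the Dlx6os1 locus, were as low as Dlx6os1 itself. Each was at 0 or 1 read in every library. The interneuron genes Dlx1 and Dlx2, at another locus, were measured at 96.7 to 122 and 115 to 153 scaled counts over all libraries and had log2 fold changes of -0.03 (adjusted p = 0.942) and -0.21 (adjusted p = 0.501). Sem1, a proteasome subunit gene 241525 bases from Dlx6os1, fell by 0.70 on the log2 scale (SE 0.142, adjusted p = 0.00628), a call lost without shMina53 3 (adjusted p = 0.0706). It was highest in shControl 3, and stayed called without that library (-0.55, adjusted p = 0.000482).

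Of the 21 partner and locus genes listed for these RNAs, 19 were tested. Their median log2 fold change was -0.06, against 0.02 over all genes tested. Of the 19, 1 was called higher and 2 lower (15.8%, beside 8.26% of all genes tested). Besides Sox2, Gad1, which makes the transmitter GABA, fell by 0.54 (SE 0.116, adjusted p = 0.00958), from 1667, 1510 and 1564 to 966, 1066 and 1250 scaled counts. The Gad1 call was lost without shMina53 1 or 2, where its adjusted p reached 0.068.

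The genes of 3 splicing regulators described as binding Miat were not called. Sf1, the branch point factor, had 3650 to 4521 scaled counts over all libraries and a log2 fold change of 0.01 (adjusted p = 0.968). Qk, a splicing regulator of glia, had a log2 fold change of 0.10 (adjusted p = 0.611), and Celf3, a neuronal splicing factor at 76.3 to 111 scaled counts, of -0.06 (adjusted p = 0.904).

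Among 25 genes for nuclear speckle proteins, the compartment of Malat1, the median log2 fold change was -0.06. Of them, 1 was called higher and 0 lower (4%, beside 8.26% of all genes tested). The one called was Son, a scaffold of the speckle, at 8771, 8256 and 6003 scaled counts in the 3 controls and 10922, 11741 and 11747 in shMina53. Son rose by 0.60 (SE 0.13, adjusted p = 0.00962) and had its lowest value in shControl 3, but stayed called without that library (0.43, adjusted p = 9.4e-05) and was lost without shMina53 2 or 3 (adjusted p up to 0.08). Srrm2, the other large speckle scaffold, had 11138, 9525 and 5383 scaled counts in the 3 controls and 11524, 12650 and 11709 in shMina53, a log2 fold change of 0.53 with a wide error (SE 0.238, adjusted p = 0.227). Without shControl 3 it was 0.21 for Srrm2 (adjusted p = 0.0751), and a second gene of the list was called higher, Srsf6 (0.29, adjusted p = 0.0144), a splicing factor. The fit without shControl 3 called 11.6% of all genes.

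Among 20 genes for paraspeckle proteins, the compartment of Neat1, the median log2 fold change was -0.11. Of them, 0 were called higher and 1 lower (5%, beside 8.26% of all genes tested). The one was Hnrnpa1, a splicing repressor, which fell by 0.45 (SE 0.105, adjusted p = 0.0156) from 10886, 11256 and 12424 to 9002, 8362 and 7987 scaled counts, and which was no longer called when shControl 2, shMina53 2 or shMina53 3 was left out, at an adjusted p of at most 0.109. Nono, Sfpq and Pspc1, which form the paraspeckle core on Neat1, had log2 fold changes of -0.18, 0.10 and 0.10 (adjusted p = 0.312, 0.596 and 0.596).

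A further 42 named long noncoding RNAs, imprinted, X-linked, neural and snoRNA host transcripts, were listed for comparison. Of these, 36 were in the table and tested, and 1 was called higher and 3 lower (11.1%, beside 8.26% of all genes tested). The median log2 fold change was 0.12. Without shControl 3, in a fit that called 11.6% of all genes, the median was -0.05. Then 2 were called higher and 3 lower, the added one being Mir124-2hg (0.49, adjusted p = 0.0243), a host of the neuronal microRNA miR-124. Zfas1 and Gas5, both hosts of small nucleolar RNAs (snoRNAs), fell by 0.76 (SE 0.147, adjusted p = 0.00464) and 0.59 (SE 0.134, adjusted p = 0.0128). Their values moved with the ribosomal protein share: Gas5 had 1717, 1987 and 2558 scaled counts in the 3 controls and 1335, 1509 and 1266 in shMina53, Zfas1 491, 656 and 760 against 389, 365 and 351, each highest in shControl 3. The part of that share in these calls was not tested, and both remained called without shControl 3 (-0.43 with adjusted p = 0.00114 for Gas5, -0.62 with 0.000373 for Zfas1).

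H19, an imprinted RNA, had 58.5, 77.2 and 78.9 scaled counts in the 3 controls and 17.4, 38.4 and 24.8 in shMina53. It fell by 1.44 (SE 0.295, adjusted p = 0.00697). Peg13, an imprinted RNA of the brain, rose by 0.42 (SE 0.113, adjusted p = 0.0321), from 635, 596 and 560 to 842, 786 and 760 scaled counts. None of these 4 calls held in all 6 fits that left out 1 library: the adjusted p reached 0.0536 for H19 and 0.0528 for Zfas1, each without shMina53 3, 0.104 for Gas5 and 0.139 for Peg13.

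Over all long noncoding RNA genes in the annotation, 63 of 2805 tested (2.25%) were called, 44 higher and 19 lower. The median log2 fold change was 0.17, and 0.11 without shControl 3. Leaving out 1 library at a time gave 10 to 86 higher and 4 to 28 lower. The median gene of this class had a mean of 5.30 scaled counts, against 381 for protein-coding genes. At a mean of at least 100 scaled counts, where 5 of the 7 RNAs lie, 26 of 155 long noncoding RNA genes were called (16.8%), 13 in each direction, beside 1411 of 10548 protein-coding genes (13.4%). The median log2 fold change at this level was 0.06 for the long noncoding RNA genes and -0.02 for the protein-coding genes.

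**Figure D4:**
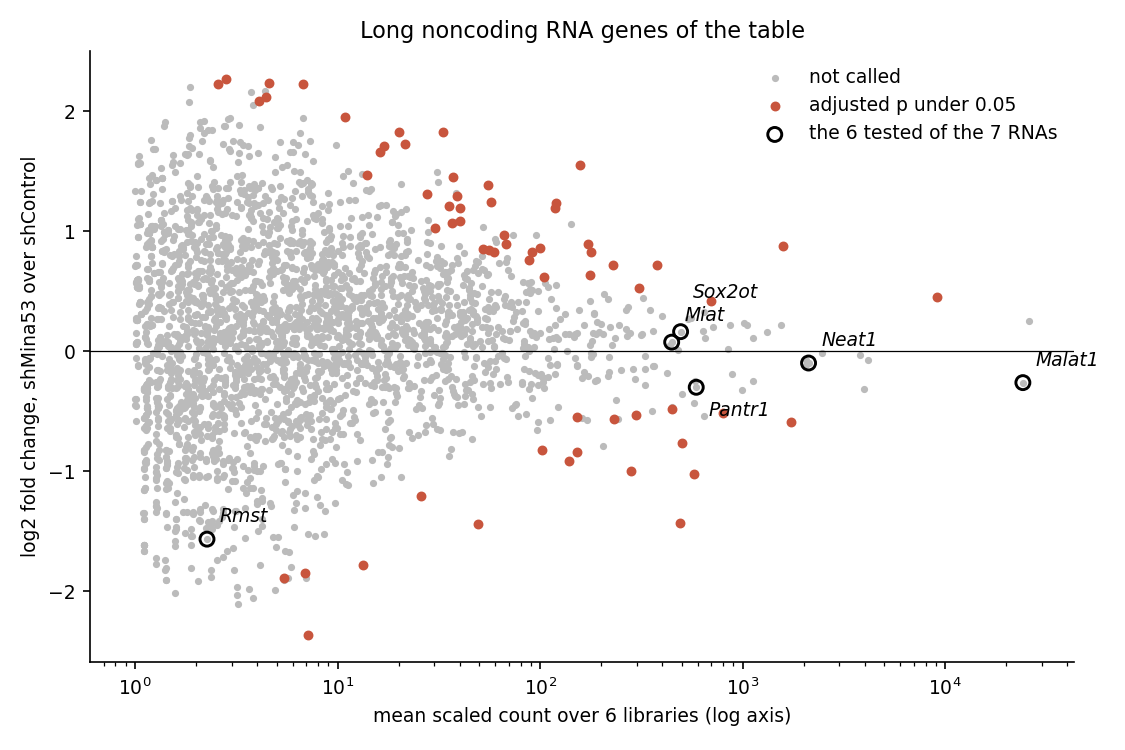
Log2 fold change of shMina53 over shControl against the mean scaled count over 6 libraries (log axis) for the 2805 long noncoding RNA genes tested; red points have an adjusted p under 0.05 and open circles mark the 6 tested members. Malat1, Neat1, Miat, Sox2ot and Pantr1 lie close to 0 at the well measured end, and Rmst lies at -1.57 among the thinly counted genes.

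The genes whose log2 values over the 6 libraries were most like each RNA, by Pearson's r among 10928 named genes with a mean of at least 100 scaled counts, included Zbtb49 (0.995) for Malat1. For Neat1 they were Plekhg5 (0.982) and Flad1 (0.982), for Miat Pip5k1c (0.997) and Espl1 (0.995), for Sox2ot Gm10705 (0.984) and Col5a2 (0.983), and for Pantr1 Arl6ip1 (0.996) and Psmc3 (0.996). These are descriptions over 6 libraries that share 1 scaling, picked as the highest of many, and 98 genes for Miat and 107 for Pantr1 had an r over 0.95, against 22 for Malat1, 6 for Sox2ot and 5 for Neat1. Rmst and Dlx6os1 have too few reads for such a comparison.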

How the data were processed

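The deposited table gave, per the file headers, 1 value per gene and library. Per the submitters' processing notes the genome build was mm10, and DESeq2, edgeR, StringTie 1.3.4d, HISAT2 2.0.4, CASAVA and UMI-tools were among the tools; their roles, the strand setting and poly(A) selection or ribosomal RNA depletion are not given in the sources used here. The deposited values are a signal, namely read counts divided by 1 factor per library: 100% of values came out as whole reads within 0.01 of a read, and these recovered reads gave the depths. The authors' p-value column was not used.

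Genes with a mean of at least 1 were tested on log2(scaled count + 1) with limma 3.58.1 (R 4.3.3, trend and robust, 3 against 3 libraries, no covariate) and Benjamini-Hochberg adjustment at 0.05; fold changes on this scale understate those of low genes. The test was checked before use on simulated counts, drawn with the same spread setting for every gene. These held no library that stood apart and no length trend, so the check does not cover a library such as shControl 3. edgeR 4.0.16 and DESeq2 1.42.0 on the recovered reads, other pseudocounts, filters and scalings, removal of a length trend (lowess, span 0.3, genes with a mean of at least 50), a replicate block and leaving out each library were the alternatives. Shares and log2 ratios were tested by exact permutation. Lengths, positions and transcript sequences came from GENCODE M21, which matched 25984 of 25996 genes.

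Named were the 7 members, Riox2, their partner, locus and neighbouring genes, from each other list up to 4 genes with the smallest adjusted p and up to 8 called, and per member the 2 genes with the highest r. Some of the genes this rule names are not reported here. The members and lists were chosen with earlier results of these data known.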

Additional observations from a re-analysis of the deposited data

How the results depend on the processing

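Of 19 alternatives each, Pantr1 and Sox2ot kept their direction and stayed uncalled in all, and Rmst in the 17 that tested it. With the length trend removed Miat turned to -0.030. With 1 library left out, Miat ran from -0.10 (without shControl 3) to 0.20, and was -0.0027 without shMina53 1; Neat1 ran from -0.15 to 0.00058 (without shControl 2); Malat1 ran from -0.57, called without shControl 3, to -0.083. The cause was not tested. The number of these RNAs called was 0 to 1 with 1 library left out and 0 otherwise. Genes called numbered 1776, 32 without trend and robust estimation, and 497 to 2794 with 1 library left out; a replicate block gave 1178. The deviations of same-numbered libraries from their group means had r of -0.15, 0.11 and 0.02 over 12053 genes. The r of 0.11, for number 2, was the highest of any pair across groups, but not every library correlated best with its own number. With 3 libraries per group such deviations cannot decide whether equal numbers share a culture, and the labels do not say. The share of reads kept its direction throughout. At this depth Rmst and Dlx6os1 allow no statement on change.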
